A study of Mus musculus with 8 samples.

Results

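The collagen gene family was examined in visceral white adipose tissue (vWAT), the fat around the abdominal organs, of wild type (WT) and KIKO mice. Its members were taken as the protein-coding genes of the count table whose symbol is Col, a number, the letter a and a number, which gave 44 of 31053 genes in the table (21897 of them protein-coding). RNA of vWAT had been sequenced from 4 WT and 4 KIKO mice, and the question was which genes differ in the fat of KIKO mice. Both genotypes were male, aged 8 months and of the C57BL/6 strain, and the WT mice were littermates. KIKO mice are a knock-in/knockout model whose alleles are present in every cell type and not in adipocytes alone. Sample titles give the depot as EWAT, and no member of a list of 8 epididymal epithelium markers was abundant enough to be tested.

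Collagens are proteins of the extracellular matrix in which 3 chains wind into a helix. This fold needs glycine as every 3rd residue, so a collagen chain is built of units of 3 residues led by glycine. Fibrillar collagens form the cables that carry tension around adipocytes and vessels. Network collagens, mainly type IV, form the sheet of the basement membrane that wraps each adipocyte and underlies endothelium. FACIT collagens sit on the surface of fibrils, and beaded-filament (type VI) collagen forms fine strings between the basement membrane and the fibrils, and is known for its abundance in fat. The remaining members include type XV and XVIII collagen, which tie basement membranes to nearby fibrils and release fragments such as endostatin, and the collagens that span the cell membrane.

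The family held 11 fibrillar, 9 network, 9 FACIT, 6 beaded and 9 other members. The coding sequences differ between these classes, with some overlap. A run was counted as 3 or more units, each led by a glycine codon, without a break. In all 11 fibrillar genes the longest run spanned 216 to 344 units, and 21 to 33 of their coding exons were exactly 54 bases long. Col3a1 had the longest run in the family, at 344 units, and Col1a1 had 338. Network genes had no run beyond 66 units and were broken into 9 to 27 runs, and at most 3 of their exons had that length. Beaded genes had short runs of at most 87 units, which filled 10% to 31.9% of the coding sequence. FACIT genes reached 113 units, and the other members 75. In FACIT genes 4 to 28 coding exons were 54 bases long, so this exon length did not separate the fibrillar class from them.

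A coding exon of each of 4 genes is shown to let the unbroken and the broken repeat be compared, with the glycine codons that lead a unit in capitals. The exons of Col1a1 (GRCm38, chr11:94939904-94939957, + strand, coding exon 8) and Col5a3 (chr9:20801068-20801121, - strand, coding exon 15) are the earliest of 54 bases in the longest run of each gene. For Col4a1 (chr8:11267597-11267647, - strand, in coding exon 2) and Col4a2 (chr8:11406813-11406854, + strand, in coding exon 11) only a part of the exon is shown. This part holds the earliest break that has 2 units on either side within the same exon, with those units. All are written in the direction of the gene.
Col1a1: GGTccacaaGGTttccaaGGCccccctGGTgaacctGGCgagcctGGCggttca
Col5a3: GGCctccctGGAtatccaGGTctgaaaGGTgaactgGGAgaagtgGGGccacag
Col4a1: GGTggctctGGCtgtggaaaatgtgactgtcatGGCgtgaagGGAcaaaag
Col4a2: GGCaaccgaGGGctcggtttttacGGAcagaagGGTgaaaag
In the Col1a1 and Col5a3 exons every unit was led by a glycine codon from end to end. In the parts of the Col4a1 and Col4a2 exons a stretch in lower case stands between units, where the count of glycine-led units was interrupted. The Col4a1 part lies in coding exon 2, near the start of the chain. Units were counted from codons alone, which does not show whether those on both sides of a break belong to the helix.

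**Figure D1:**
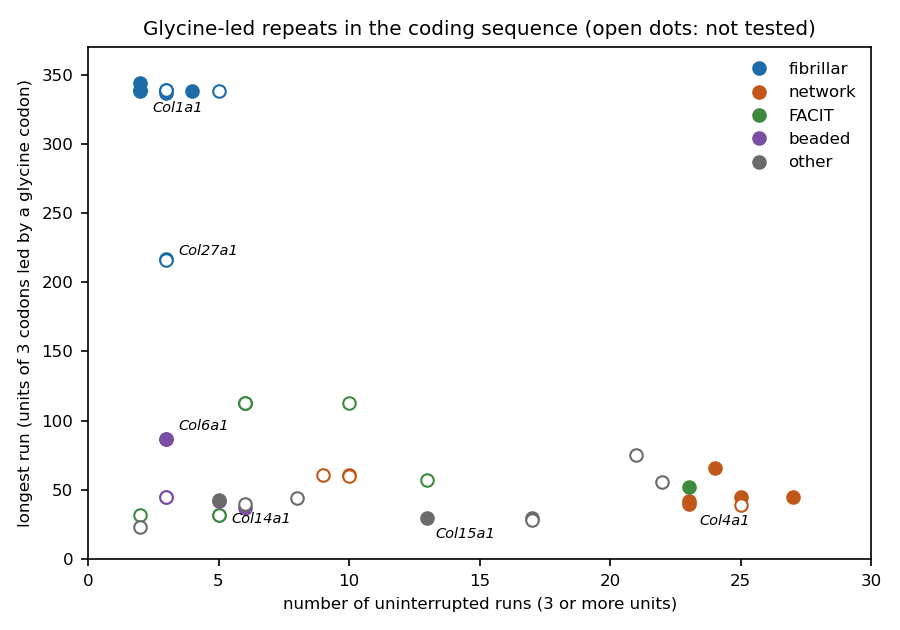
Longest run of glycine-led units (y axis, in units of 3 codons) against the number of runs (x axis) in the coding sequence of each of the 44 collagen genes, coloured by class, with filled dots for the 23 genes tested and open dots for the others. Fibrillar genes lie at 216 to 344 units, above all other classes, and network genes lie at up to 27 runs.

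The libraries held 2602189 to 3478539 counts, and 14822 to 15389 genes had a count in each. Levels are normalised read counts (CPM, with library sizes scaled by the TMM method), and KIKO was compared with WT by edgeR's quasi-likelihood test with Benjamini-Hochberg adjustment over the 11080 genes with enough counts. An adjusted p under 0.05 counted as a pass. WT mouse 3 lay among the KIKO mice on the main axis of variation, at 12.6 against 4.04 to 24 in the KIKO mice and -38.6 to -8.43 in the other WT mice.

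Of the 44 collagen genes, 23 were tested, 15 had too few counts and 6 had no count in any mouse. The 23 tested genes comprised 7 fibrillar, 6 network, 2 FACIT, 5 beaded and 3 other members. Per mouse, all collagens together took 0.343% to 0.413% of counts in the WT and 0.312% to 0.347% in the KIKO mice. Their summed level was 3290, 3320, 4310 and 3930 CPM in WT mice 1 to 4, and 3340, 3610, 3130 and 3530 CPM in the KIKO mice 1 to 4. These ranges overlapped, and WT mice 3 and 4 were above all 4 KIKO mice. In WT mice, fibrillar genes made up 45.3% of the collagen CPM, network genes 32.8%, beaded genes 12.1%, other genes 7.75% and FACIT genes 1.97%. In KIKO mice these shares were 45.7%, 31.8%, 11.6%, 8.34% and 2.49%.

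The order of levels between genes was taken per kilobase of transcript. In WT mice Col4a1 stood at 113 CPM per kb and Col1a2 at 102, followed by Col4a2 at 67.8, Col3a1 at 65.2, Col5a3 at 64.6, Col6a2 at 43.3 and Col15a1 at 39.1. In KIKO mice Col1a2 stood at 106 CPM per kb, Col4a1 at 104, Col3a1 at 63.5, Col4a2 at 56.4, Col5a3 at 45.4, Col15a1 at 39.2 and Col6a2 at 35.2. The same 7 genes led in both genotypes. In WT mice Col4a1 and Col1a2 differed by less than the SD between mice, as did Col4a2, Col3a1 and Col5a3, and Col6a2 and Col15a1. Whether counts grow with transcript length depends on the library kit, for which the methods and the labels give different names, so this scale is uncertain.

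**Figure D2:**
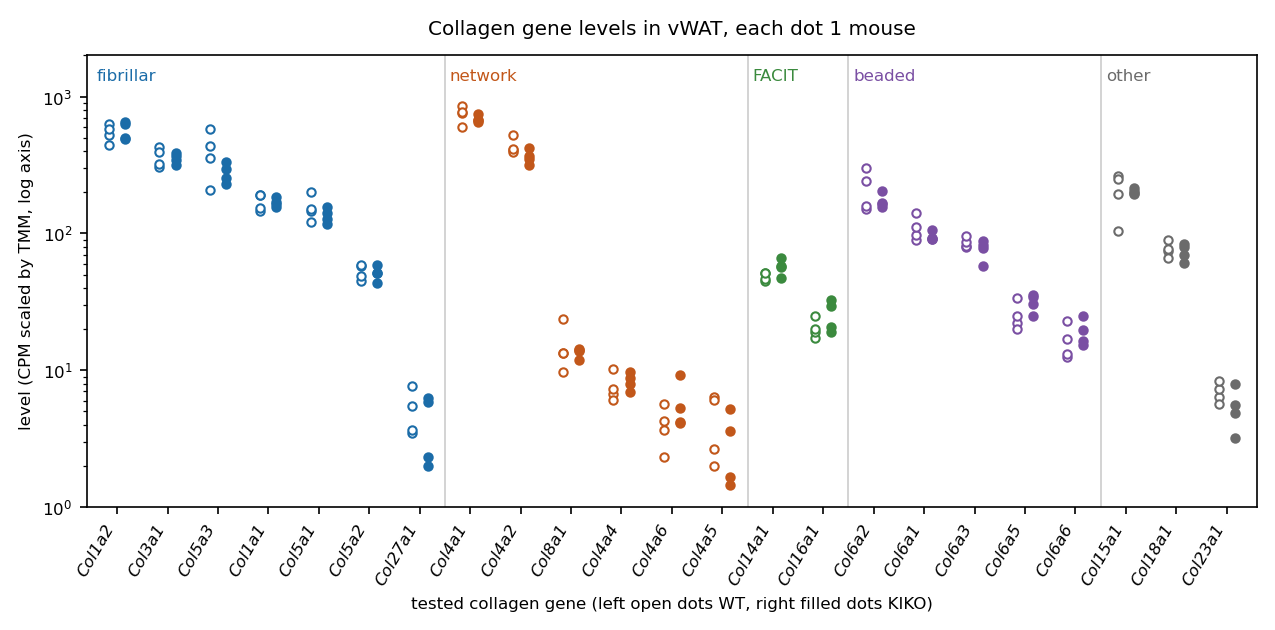
Level of the 23 tested collagen genes (y axis, CPM scaled by TMM, log axis), grouped by class along the x axis, with each dot 1 mouse, open for WT and filled for KIKO (n = 4 each). The dots of WT and KIKO mice overlap for all 23 genes, and the WT dots of Col5a3 (206 to 580 CPM) and Col15a1 (105 to 264 CPM) spread over a wider range than the KIKO dots.

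None of the 23 tested collagen genes passed in KIKO against WT mice, where 75 of all 11080 tested genes did (0.677%). Only Col5a3 had an unadjusted p under 0.05 among the 23, against 1794 of all tested genes (16.2%). No collagen gene had 4 KIKO mice that all lay above or all lay below the 4 WT mice, whereas 936 of all tested genes did (8.45%). The fitted log2 fold change was above 0 for 8 members and below 0 for 15. Its median was -0.06 over the 23 members and -0.0071 over all tested genes, and -0.08 over the 3952 tested genes whose transcript length lay in the range of the collagens. With WT mouse 3 left out, 654 of 11261 tested genes passed (5.81%), still with none of the 23 collagens among them, and 11 of the 23 estimates were above 0. In bulk tissue, any change in the number of collagen-producing cells cannot be told apart from a change in collagen RNA per cell.

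The intervals say what size of change the data leave room for. The 95% interval of the fold change lay within 1.5-fold in either direction for 12 of the 23 genes, and within 2-fold for 20. Among the 10 members above 100 CPM, 8 had an interval within 1.5-fold. The SE of the log2 fold change ran from 0.13 for abundant members to 0.46 for Col4a5, which had few counts. For the other 3 genes, all below 10 CPM, the interval reached past 2-fold.

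**Figure D3:**
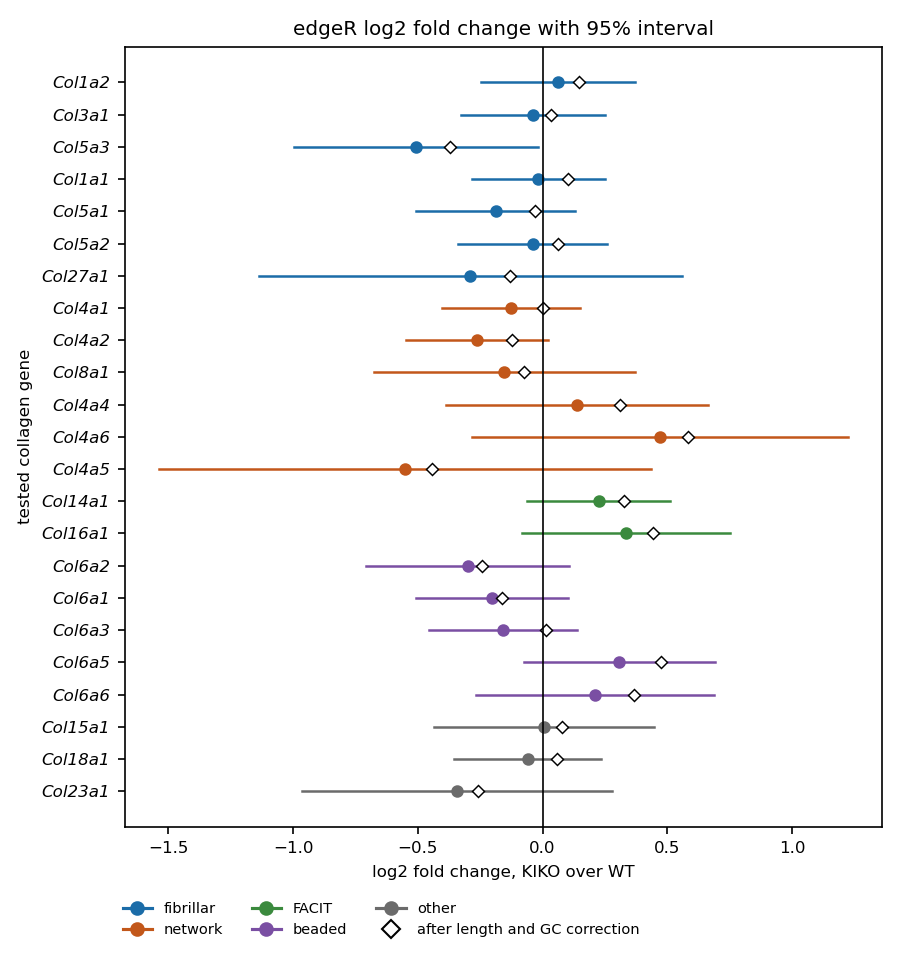
Log2 fold change of KIKO over WT (x axis) for each tested collagen gene (y axis), with dots and lines for the edgeR estimate and its 95% interval, coloured by class, and open diamonds for the estimate corrected for length and GC content of the transcript. All intervals but that of Col5a3 include 0, and the diamonds lie to the right of the dots for all 23 genes.

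The fibrillar class summed to 1450, 1550, 1910 and 1820 CPM in the WT mice and 1410, 1720, 1420 and 1680 CPM in the KIKO mice. Its mean was 1683 ± 214 CPM in the WT and 1557 ± 166 CPM in the KIKO mice, and the groups overlapped. None of its 7 tested genes passed, and their median log2 fold change was -0.04.

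Type I collagen, the main fibril protein of connective tissue, is built from Col1a1 and Col1a2 chains. Col1a1 (chr11) was at 146, 153, 191 and 190 CPM in the WT and 163, 184, 156 and 169 CPM in the KIKO mice. Col1a2 (chr6), which joins it in the same molecule, was at 625, 520, 441 and 584 CPM in the WT and 497, 625, 486 and 656 CPM in the KIKO mice. Every KIKO value of Col1a1 lay inside the WT range, and the groups overlapped for Col1a2. The log2 fold change was -0.02 (SE 0.13, 95% interval -0.28 to 0.25, adjusted p = 0.964) for Col1a1 and 0.06 (SE 0.15, interval -0.25 to 0.37, adjusted p = 0.870) for Col1a2. Col3a1, whose type III molecule co-assembles with type I in soft tissue, was at 306, 321, 431 and 393 CPM in the WT and 315, 390, 342 and 366 CPM in the KIKO mice. Its log2 fold change was -0.04 (SE 0.14, adjusted p = 0.917), with an upper bound of 0.25. For these 3 chains of the main fibrils, the intervals held no change as large as 1.5-fold.

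Type V collagen is a minor partner within type I fibrils that controls how they start and how thick they become. Col5a3, on the minus strand of chr9:20770050-20815067, encodes the chain known from fewer tissues than the others and had the smallest p of the family. In vWAT it was the most abundant type V chain, at 64.6 CPM per kb in the WT mice against 18.4 for Col5a1. It was at 206, 358, 580 and 435 CPM in the WT mice and 230, 330, 255 and 296 CPM in the KIKO mice. WT mice 2 to 4 were above all 4 KIKO mice, and WT mouse 1 was below them all. The mean was 395 ± 156 CPM in the WT and 278 ± 44.0 CPM in the KIKO mice, and the log2 fold change was -0.51 (SE 0.23, interval -0.996 to -0.02), with an unadjusted p of 0.0427 and an adjusted p of 0.289. Without WT mouse 1 its adjusted p was 0.0616, so it did not pass there either.

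The other type V chains differed less. Col5a1, the chain found in nearly all type V molecules, was at 121, 146, 200 and 150 CPM in the WT and 156, 128, 118 and 140 CPM in the KIKO mice, a log2 fold change of -0.19 (SE 0.15, adjusted p = 0.576). Col5a2 was at 44.7, 49.1, 57.6 and 58.6 CPM in the WT and 43.2, 58.3, 51.2 and 51.6 CPM in the KIKO mice, with a log2 fold change of -0.04 (SE 0.14, adjusted p = 0.913). Both groups overlapped for both chains. Col27a1, a fibrillar gene best known from cartilage, was scarce, at 3.49 to 7.70 CPM in the WT and 2.0 to 6.27 CPM in the KIKO mice (log2 fold change -0.29, SE 0.40).

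The network class summed to 1210, 1040, 1410 and 1220 CPM in the WT and 1130, 1130, 1000 and 1070 CPM in the KIKO mice. Its mean was 1218 ± 152 CPM in the WT and 1083 ± 61.4 CPM in the KIKO mice, none of its 6 tested genes passed, and their median log2 fold change was -0.14. Col4a1 and Col4a2 encode the chains of the common type IV molecule and lie head to head on chromosome 8, where their annotated ends share 22 bases.

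Col4a1 was at 761, 604, 852 and 775 CPM in the WT and 678, 741, 647 and 674 CPM in the KIKO mice, so 3 WT mice were above all KIKO mice. Its log2 fold change was -0.13 (SE 0.13, interval -0.40 to 0.15, adjusted p = 0.671). Col4a2 was at 410, 395, 527 and 417 CPM in the WT and 422, 350, 316 and 368 CPM in the KIKO mice, so 3 KIKO mice were below all WT mice. Its log2 fold change was -0.26 (SE 0.13, interval -0.55 to 0.02), with an unadjusted p of 0.067 and an adjusted p of 0.350.

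The other network genes were far scarcer. Col4a4, a chain of the kidney filter's basement membrane, was at 6.03 to 10.3 CPM in the WT and 6.93 to 9.72 CPM in the KIKO mice (log2 fold change 0.14, SE 0.25). Col4a5 was at 2.01 to 6.34 CPM in the WT and 1.46 to 5.18 CPM in the KIKO mice (-0.55, SE 0.46), and Col4a6, its partner in the basement membrane of smooth muscle, at 2.34 to 5.71 CPM in the WT and 4.10 to 9.19 CPM in the KIKO mice (0.47, SE 0.35). These neighbours, 1308 bases apart on chromosome X, had estimates of opposite sign that did not pass. Col8a1, which forms lattices in vessel walls, was at 23.8, 13.3, 9.71 and 13.4 CPM in the WT and 11.9 to 14.4 CPM in the KIKO mice. Its log2 fold change was -0.15 (SE 0.25), and it was 0.16 without WT mouse 1, the highest WT mouse.

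The FACIT class was small in vWAT, with a sum of 74.5, 69.4, 73.6 and 74.3 CPM in the WT and 92.7, 88.7, 69.3 and 88.8 CPM in the KIKO mice. KIKO mice 1, 2 and 4 were above every WT mouse, and KIKO mouse 3 lay beside the lowest WT mouse. The mean was 73.0 ± 2.43 CPM in the WT and 84.9 ± 10.5 CPM in the KIKO mice. Col14a1, a fibril-surface collagen of fibroblasts, was at 51.4, 44.8, 46.5 and 51.6 CPM in the WT and 56.4, 65.9, 47.0 and 58.0 CPM in the KIKO mice. Col16a1, found near basement membranes and fine fibrils, was at 17.1, 19.1, 25.1 and 20.1 CPM in the WT and 32.7, 19.2, 20.7 and 29.3 CPM in the KIKO mice. The log2 fold change was 0.22 (SE 0.13, interval -0.06 to 0.51, adjusted p = 0.437) for Col14a1 and 0.33 (SE 0.20, interval -0.08 to 0.75, adjusted p = 0.427) for Col16a1. Neither gene passed, and both had estimates above 0.

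The beaded class summed to 360, 393, 560 and 487 CPM in the WT and 422, 402, 369 and 388 CPM in the KIKO mice, with means of 450 ± 90.7 CPM and 395 ± 22.5 CPM. None of its 5 tested genes passed, and their median log2 fold change was -0.16. The estimates of the 3 chains of the classical type VI molecule were below 0, and those of the 2 chains that can take the place of the Col6a3 chain were above 0.

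Col6a1 was at 90.0, 96.9, 140 and 111 CPM in the WT and 106, 90.3, 91.7 and 92.3 CPM in the KIKO mice (log2 fold change -0.20, SE 0.14, adjusted p = 0.513). Col6a2, its neighbour on chromosome 10, was at 151, 158, 300 and 242 CPM in the WT and 167, 204, 157 and 163 CPM in the KIKO mice (-0.30, SE 0.19, adjusted p = 0.469). Col6a3 was at 79.6, 81.5, 87.0 and 95.1 CPM in the WT and 88.5, 57.9, 77.7 and 82.6 CPM in the KIKO mice (-0.16, SE 0.14, adjusted p = 0.619). For Col6a1 and Col6a2, WT mice 3 and 4 were above all KIKO mice and WT mice 1 and 2 were not. Col6a5 was at 22.2, 33.6, 20.1 and 25.1 CPM in the WT and 35.6, 30.4, 24.9 and 34.3 CPM in the KIKO mice (0.31, SE 0.18, adjusted p = 0.426). Col6a6, 27.9 kb from it on chromosome 9, was at 12.4 to 23.0 CPM in the WT and 15.2 to 24.8 CPM in the KIKO mice (0.21, SE 0.22).

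Of the remaining members, Col15a1 and Col18a1 were abundant and Col23a1, a transmembrane collagen, was scarce. Col15a1, a collagen between basement membranes and fibrils, was at 105, 193, 264 and 248 CPM in the WT and 195, 197, 204 and 214 CPM in the KIKO mice. All KIKO mice lay within the range of the WT mice, and the means were 202 ± 71.7 and 203 ± 8.56 CPM. The log2 fold change was 0.0045 (SE 0.21, interval -0.44 to 0.45, adjusted p = 0.995). Col18a1, the source of endostatin, was at 73.9, 66.3, 89.7 and 76.7 CPM in the WT and 83.2, 69.9, 60.9 and 79.7 CPM in the KIKO mice (log2 fold change -0.06, SE 0.14, adjusted p = 0.867). Col23a1 was at 5.69 to 8.37 CPM in the WT and 3.20 to 7.92 CPM in the KIKO mice (-0.34, SE 0.29). As a class they summed to 288 ± 78.3 CPM in the WT and 284 ± 14.3 CPM in the KIKO mice.

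The 21 untested genes together held 220 of the 86821 collagen counts (0.253%), with 112 in the WT and 108 in the KIKO mice. No count was seen for Col2a1 and Col10a1, the collagens of cartilage and of its hypertrophic zone, nor for Col9a1, Col9a2, Col19a1 and Col24a1. A count of 0 over all 8 libraries allows up to 0.122 CPM (3 counts over all, counting error only). Of the 15 genes with a few counts, 10 had at most 11 over all mice, and Col8a2 had the most, with 50. Col4a3, which lies 71 bases from Col4a4 and joins it in the kidney filter, had 3, 0, 4 and 1 counts in the WT and 1, 4, 7 and 1 counts in the KIKO mice. Col12a1, a FACIT collagen of tendon and fascia, had 8, 13, 1 and 4 counts in the WT and 7, 5, 4 and 3 counts in the KIKO mice. The scarce genes also included Col11a1 and Col11a2 (fibrillar), Col9a3, Col20a1 and Col22a1 (FACIT), Col6a4 (beaded), and Col7a1, Col13a1, Col17a1, Col25a1, Col26a1 and Col28a1.

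Mice of the same genotype varied, and WT mice more than KIKO mice for many members. The coefficient of variation was larger in WT than in the KIKO mice for 14 of the 23 tested genes, with a median of 20.3% in the WT and 13.7% in the KIKO mice. Among the 10 members above 100 CPM it was larger in WT mice for 9, with medians of 18.3% and 10.6%. The highest WT mouse exceeded the lowest by 2.81-fold for Col5a3, 2.51-fold for Col15a1 and 1.99-fold for Col6a2, whereas Col15a1 varied 1.1-fold among KIKO mice. WT mouse 3 was the highest WT mouse for 12 of the 23 genes, and WT mouse 1 the lowest for 11. This difference in spread between genotypes was not tested.

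Chains of the same molecule, and related chains of the same class, were compared within each mouse as ratios of raw counts, in which library size cancels. These ratios were not divided by transcript length and are not proportions of chains. The trend with transcript length described below differs between libraries and does not cancel for chains of unlike length. The ratio of Col3a1 to Col1a1 was the steadiest, at 2.07 to 2.25 in the WT and 1.94 to 2.19 in the KIKO mice. Col1a2 over Col1a1 ran from 2.3 to 4.3 in the WT and from 3.06 to 3.89 in the KIKO mice, and Col4a1 over Col4a2 from 1.53 to 1.86 in the WT and from 1.61 to 2.11 in the KIKO mice. Col5a3 over Col5a2 was 4.62 to 10.1 in the WT and 4.98 to 5.75 in the KIKO mice, so the WT range spanned the KIKO range on both sides. Within type VI, Col6a2 over Col6a1 was 1.63 to 2.18 in the WT and 1.57 to 2.26 in the KIKO mice, and Col6a3 over Col6a1 was 0.621 to 0.884 in the WT and 0.642 to 0.895 in the KIKO mice. Col6a5 over Col6a3 was 0.231 to 0.413 in the WT and 0.321 to 0.524 in the KIKO mice. For all 9 ratios computed, the WT and KIKO mice overlapped.

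**Figure D4:**
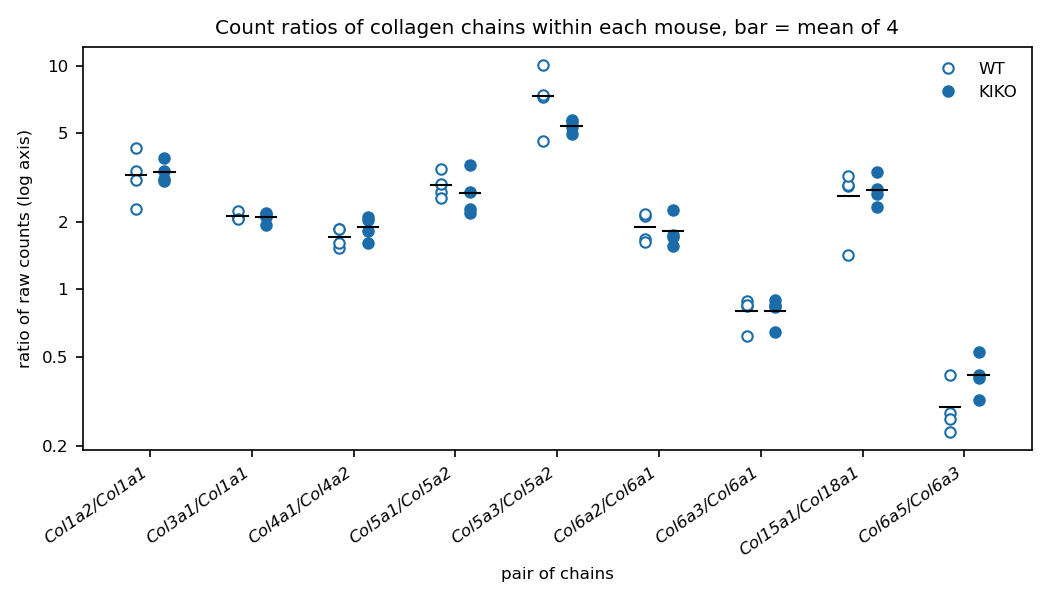
Ratio of the raw counts of a pair of collagen chains (y axis, log axis) in each mouse, with open dots for WT, filled dots for KIKO and a bar at the mean of 4 mice, for 9 pairs along the x axis. WT and KIKO dots overlap for all pairs, and Col3a1 over Col1a1 stays between 1.94 and 2.25 in all 8 mice.

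Collagen transcripts are long, and fold changes varied with transcript length in these libraries. The tested collagens had transcripts of 4100 to 10108 bases with a median of 6450, against a median of 3471 for all tested genes. Across 11075 genes, the log2 fold change was lower for longer transcripts (Spearman's rho -0.282, a description over genes that share the same 8 libraries). Per library, the deviation from the mean of all mice correlated with length at rho 0.262, 0.253, -0.11 and 0.11 in WT mice 1 to 4 and at -0.214 to -0.0843 in the KIKO mice. With length and GC content corrected for, rho was -0.0094. The number of collagens with an estimate above 0 was then 14 in place of 8 of 23, and their median log2 fold change was 0.03 in place of -0.06. Under this correction 3 of the 23 members had an unadjusted p under 0.05 (all genes in that fit: 14.5%), all with estimates above 0, namely Col6a5 at 0.47, Col14a1 at 0.33 and Col16a1 at 0.44 on the log2 scale. None of them passed, since the smallest adjusted p was 0.228, and Col5a3 stood at -0.37. The balance of signs among the collagens therefore depended on this correction, and the absence of a call did not.

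Genes that fold, export, trim, crosslink, bind or degrade collagens, or are their partners in basement membranes, were examined as 7 lists. These held 73 members, of which 59 were tested. Only Hspg2 passed, where 75 of all 11080 tested genes did (0.677%), and it fell in the KIKO mice. Hspg2 (chr4:137468769-137570630), which encodes perlecan, the main heparan sulfate proteoglycan of basement membranes, was at 137, 153, 124 and 147 CPM in the WT and 71.0, 86.7, 87.8 and 95.2 CPM in the KIKO mice. All KIKO mice were below all WT mice. Its log2 fold change was -0.72 (SE 0.13, interval -0.99 to -0.45, adjusted p = 0.0326). Its transcript of 14187 bases is longer than that of any tested collagen. It did not pass after the length correction or in 6 of the 8 fits that left out a mouse. Among the other 9 tested basement membrane partners of type IV collagen, Agrn, another heparan sulfate proteoglycan, was at -0.40 (SE 0.17, adjusted p = 0.264). Nid1, a linker of laminin and type IV collagen, was at -0.23 (SE 0.13, adjusted p = 0.396). Of all 10 tested partners 7 had estimates below 0 and 3 above 0. The laminin genes Lamb2, Lama4, Lamb1, Lamc1 and Lama2 lay between -0.06 and 0.04, and Lama5 was at -0.54 (SE 0.36).

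None of the 58 other tested pathway genes passed, and 9 of the 59 had an unadjusted p under 0.05 (all genes: 16.2%). In 7 of the 59 the genotypes did not overlap (all genes: 8.45%). Serpinh1, the chaperone that holds the folded collagen helix on its way out of the cell, was at 84.6, 98.7, 121 and 131 CPM in the WT and 162, 136, 180 and 147 CPM in the KIKO mice. Its log2 fold change was 0.53 (SE 0.15, adjusted p = 0.100), and every KIKO mouse was above every WT mouse. Pcolce, which speeds the removal of the C-terminal propeptide, was at 46.3, 48.5, 52.5 and 47.9 CPM in the WT and 92.4, 74.3, 58.3 and 80 CPM in the KIKO mice (0.64, SE 0.14, adjusted p = 0.0593). Its relative Pcolce2 was at 69.1, 62.1, 87.4 and 74.3 CPM in the WT and 95.4, 106, 121 and 98.7 CPM in the KIKO mice (0.53, SE 0.14, adjusted p = 0.0841). The KIKO mice were above the WT mice for both. With DESeq2, and also without the filter on low counts, Serpinh1, Pcolce, Pcolce2 and Mmp2 passed beside Hspg2. With the length and GC correction, 0 of the pathway genes passed. Transcripts of Serpinh1 (2274 bases), Pcolce (2573) and Mmp2 (3078) are shorter than the median of 3471 bases over all tested genes. That of Pcolce2 (4438 bases) is longer. Of all genes with an adjusted p, 4.78% passed with DESeq2 and 2.11% without the filter.

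The genes with the smallest p in the other lists had estimates on both sides of 0. Plod2, a lysyl hydroxylase that prepares crosslinks, was at 7.36 to 20 CPM in the WT and 7.59 to 9.08 CPM in the KIKO mice (-0.67, SE 0.27, adjusted p = 0.233). Sar1a and Tmed10, which act in export from the endoplasmic reticulum, had log2 fold changes of 0.36 (adjusted p = 0.156) and 0.20 (adjusted p = 0.400). All 4 tested crosslinking enzymes had estimates below 0, led by Loxl3 at -0.35 (adjusted p = 0.617) and Loxl2 at -0.16. Of the receptors, Itga1, the integrin chain that binds type IV collagen, was at 143 to 194 CPM in the WT and 99.5 to 157 CPM in the KIKO mice (-0.35, SE 0.15, adjusted p = 0.255), and Ddr2, the receptor kinase for fibrillar collagen, was at 0.20 (adjusted p = 0.422). Mmp2, a gelatinase that cuts denatured and type IV collagen, was at 15.5, 19.4, 28.4 and 17.7 CPM in the WT and 38.0, 26.4, 32.1 and 33.4 CPM in the KIKO mice (0.68, SE 0.19, adjusted p = 0.100), and Mmp9 was at 0.38 (adjusted p = 0.381). Median log2 fold changes ran from -0.15 in the basement membrane partners to 0.15 in the degradation list.

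**Figure D5:**
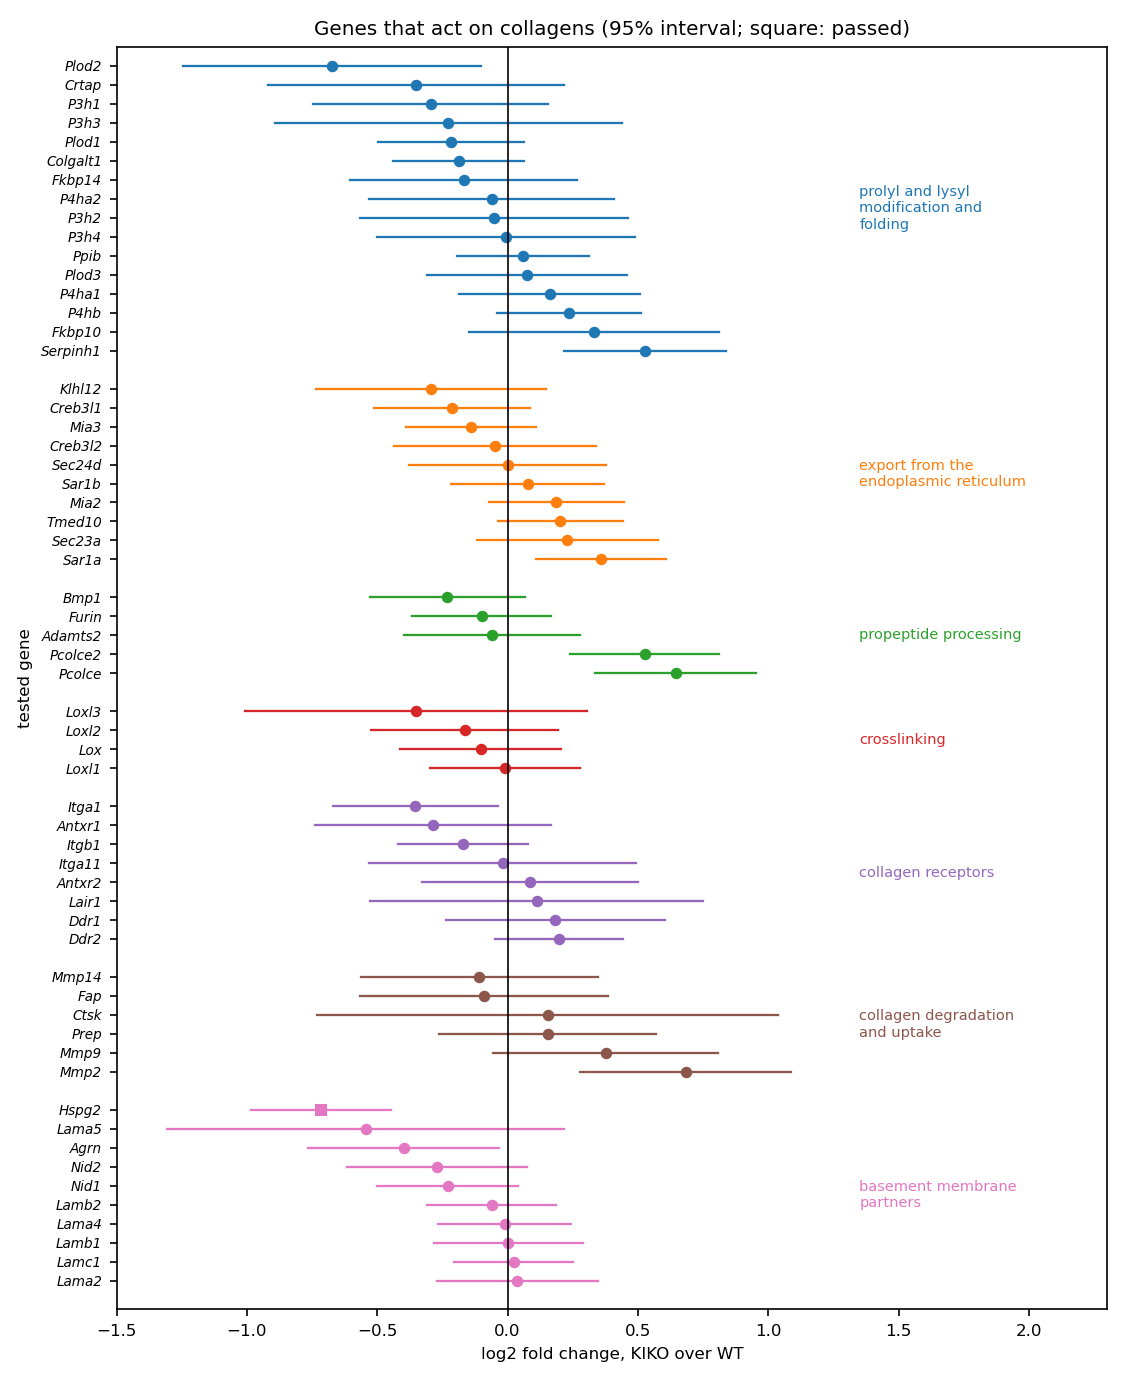
Log2 fold change of KIKO over WT with its 95% interval (x axis) for 59 tested genes (y axis) that act on collagens or are basement membrane partners. Genes are grouped and coloured by list, with a square for the gene that passed. Hspg2, a basement membrane partner, is the only square, at -0.72, and Pcolce, Pcolce2, Serpinh1, Sar1a and Mmp2 have intervals above 0. Plod2, Itga1 and Agrn, which did not pass, have intervals below 0.

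Markers of the cell types of the tissue did not all lie on the same side. The 10 fibroblast and progenitor markers summed to 2780 to 3290 CPM in the WT and 3310 to 4030 CPM in the KIKO mice, with 7 estimates above 0, none passing and sums that did not overlap. Most of this sum was Dcn, which encodes decorin, a proteoglycan of fibrils, at 1990 to 2250 CPM in the WT and 2560 to 3040 CPM in the KIKO mice. The sums of the other 9 markers overlapped, at 780 to 1040 CPM in the WT and 753 to 988 CPM in the KIKO mice. Among these 9, Lum did not overlap, at 19.3 to 24.5 CPM in the WT and 27.8 to 32 CPM in the KIKO mice. Its log2 fold change was 0.43 (adjusted p = 0.167). Dcn and Lum were the 2 of 10 markers without overlap (all tested genes: 8.45%). Pi16, Fbn1 and Ly6a had estimates below 0. The 9 tested endothelial markers all had estimates below 0, with sums of 762 to 1010 CPM in the WT and 506 to 856 CPM in the KIKO mice, and none passed. Of 10 mural cell markers, 8 had estimates below 0 and none passed, with sums of 671 to 775 CPM in the WT and 502 to 719 CPM in the KIKO mice. The 8 macrophage markers summed to 1470 to 1740 CPM in the WT and 1870 to 2210 CPM in the KIKO mice, with no overlap. Their estimates were above 0 for 7 and below 0 for 1, and Lyz2 alone passed (log2 fold change 0.95, adjusted p = 0.0326). Among 7 tested mesothelial markers 6 had estimates above 0, and Msln was below 0 (-0.18, adjusted p = 0.795). Krt19 (1.15, adjusted p = 0.0326) and Upk1b (0.90, adjusted p = 0.0355) passed (all tested genes: 0.677%). The mesothelial sums overlapped, at 245 to 357 CPM in the WT and 264 to 510 CPM in the KIKO mice. The 8 adipocyte markers summed to 18000 to 22400 CPM in the WT and 21000 to 24900 CPM in the KIKO mice, mostly from Fabp4 and Adipoq. Their estimates were above 0 for 7 and below 0 for 1 (Cidec, -0.24), and none passed. Adipoq was the 1 marker of the 8 without overlap (all tested genes: 8.45%). It was at 3700 to 5360 CPM in the WT and 5870 to 6920 CPM in the KIKO mice (0.54, adjusted p = 0.1025). The part of these cell types in the collagen levels was not tested.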

How the data were processed

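RNA of vWAT from 4 WT and 4 KIKO mice was sequenced, with 1 library per mouse. The authors deposited raw counts per Ensembl gene, made from reads trimmed with Trimmomatic and aligned to GRCm38 with HISAT2 and, per the methods, quantified with StringTie. They also deposited log2 values, checked here to be log2 of the count times 1 factor per library, plus 1, and used only as an alternative. The methods name a stranded mRNA kit and a NextSeq instrument, the labels a NovaSeq instrument and digital mRNA-seq. Whether counting used strand is not given in the sources used here, and at most 1.44% of a collagen's exon bases overlapped another gene.

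The counts were tested with edgeR 4.0.16 in R 4.3.3 (TMM, filterByExpr, quasi-likelihood test on genotype, Benjamini-Hochberg adjustment). SE and 95% intervals are those implied by the F statistic. Library totals of 2602189 to 3478539 counts and a common biological coefficient of variation of 0.16 set the precision. Symbols, positions, transcript lengths and coding exons came from the GENCODE annotation of GRCm38, which held 30934 of the 31053 genes. Alternatives were DESeq2 1.42.0, limma-voom and limma-trend (limma 3.58.1), other size factors, no filter, a length and GC correction (mgcv 1.9.3), a replicate block and leaving out each mouse. Steps were tested on simulated data. No libraries of the same genotype were duplicates.

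The members and lists were chosen with earlier results of these data known. Named genes were all tested collagens, pathway genes that passed and those of the 2 smallest p per list. The targeted gene is not reported here. Nid1, the laminin genes, Col4a3, Col8a2, Col12a1, Dcn, Lum, Pi16, Fbn1, Ly6a, Msln, Adipoq, Fabp4, Cidec and the markers that passed were added after their values were seen. Mouse numbers were not treated as pairing the mice across genotypes in the main test.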

Additional observations from a re-analysis of the deposited data

Results flagged for a closer look

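In 46 groups of 4 mice (23 tested collagens in both genotypes), a mouse that stood apart from the other 3 was looked for as a gap to its nearest neighbour, as a share of the group's range, above Dixon's 95% critical value, which chance gives in about 1 in 20 groups. The gap was 0.835 of the range for Col4a2 in WT mice, where WT mouse 3 was at 527 CPM, the nearest mouse at 417 CPM and the lowest at 395 CPM. It was 0.875 for Col6a1 in KIKO mice, where KIKO mouse 1 was at 106 CPM, the nearest mouse at 92.3 CPM and the lowest at 90.3 CPM. No collagen passed without either mouse.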

How the results depend on the processing

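No collagen gene passed in any of the 16 fits, and the smallest adjusted p was 0.0616, for Col5a3 without WT mouse 1. DESeq2, which gave an adjusted p to 16 members, had 0.225 as its smallest. The number of all genes that passed was 75, and it was 382 with no filter on low counts, 284 with DESeq2, 40 with limma-voom, 45 with limma-trend and 32 with the length and GC correction. With the replicate number as a block it was 0 (12.9% of genes had an unadjusted p under 0.05), and 0 pathway genes and no collagen passed there. No shared effect of the number was seen: deviations from the genotype mean correlated between same-numbered mice at -0.152, -0.133, -0.113 and 0.0285. Such values cannot exclude that the mice were matched. Leaving out a mouse gave 0 to 654 genes, with 654 without WT mouse 3, 48 without WT mouse 1, 4 without KIKO mouse 1, 19 and 18 without KIKO mice 2 and 3, and 0 when the mouse was WT 2, WT 4 or KIKO 4. Pathway genes that passed were 1 in the main test, 5 with no filter and 5 with DESeq2 (Hspg2, Mmp2, Pcolce, Pcolce2 and Serpinh1 in both), 0 with the length and GC correction, and 0 to 6 on leaving out a mouse. The 6, without WT mouse 3, included Plod2, and without KIKO mouse 3 Pcolce alone passed. Of the 8 fits that left out a mouse, Hspg2 passed in those without WT mouse 1 or WT mouse 3. With the length and GC correction the median log2 fold change turned above 0 for beaded (0.015), fibrillar (0.034) and other collagens (0.059). The fibrillar median was also above 0 without WT mouse 4 (0.0038), and that of other collagens without WT mouse 3 (0.026) or KIKO mouse 3 (0.0052). That correction also turned the estimates of Col1a1 (0.10), Col3a1 (0.034), Col5a2 (0.061), Col4a1 (0.00013), Col6a3 (0.015) and Col18a1 (0.059) above 0, and limma-trend that of Col1a1 (0.0084). Leaving out a mouse turned the sign for Col1a1 (-0.084 to 0.047), Col1a2 (-0.025 to 0.14), Col3a1 (-0.11 to 0.058), Col5a2 (-0.11 to 0.033), Col8a1 (-0.31 to 0.16), Col15a1 (-0.21 to 0.16) and Col18a1 (-0.12 to 0.026). In all, 24 of 345 single-gene values changed sign. The cause of these changes was not tested. Col4a5, Col4a6, Col23a1 and Col27a1 had 89 to 152 counts over all mice.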
